A study of Mus musculus with 9 samples.

Results

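The MHC class I antigen-loading genes described here are the class I heavy chains *H2-D1* and *H2-K1*, their light chain *B2m*, the peptide transporter *Tap1* and *Tap2*, tapasin (*Tapbp*), the immunoproteasome subunits *Psmb8*, *Psmb9* and *Psmb10*, and *Nlrc5*. They were chosen by name, as 10 of the 52550 genes with a deposited expression value. MHC class I molecules display peptides from the cell's own proteins to CD8+ T cells. The immunoproteasome cuts proteins into such peptides, TAP carries them into the endoplasmic reticulum, and tapasin holds an empty heavy chain with β2-microglobulin at TAP until a peptide binds. Nlrc5 is the transactivator of class I promoters, and IFN is known to raise the transcription of this whole route.

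The study asked how a variant of *Ncf1*, a subunit of the NOX2 oxidase, changes plasmacytoid dendritic cells (pDCs), which answer nucleic acids sensed by TLR7 and TLR9 with a burst of type I IFN. Splenic pDCs of C57BL/6 mice were stimulated with R848, a TLR7/-8 ligand, for 12 hours, and RNA-Seq was done on 9 samples. They comprised 3 of WT (G/G) mice, 3 of heterozygous (G/A) and 3 of homozygous (A/A) *Ncf1*-KI mice, in which an arginine codon was changed to a histidine codon. The KI allele was made with CRISPR/Cas9 in zygotes, is present in every cell of the animal, and was bred onto C57BL/6J; the pDCs were sorted as CD11c-int SiglecH+ PDCA1+ cells. All groups received R848, so none shows the resting level.

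All levels below come from A/A replicate 1. The remaining 8 libraries were not analysed here. Genotypes could therefore not be compared, no test was possible and replicate error is unknown throughout. The library held 31408298 reads on 17664 genes. Levels of a gene are given as reads, as CPM (a library total set to 1000000, with no length correction) or as TPM (reads per base of merged annotated exon, scaled so that all genes sum to 1000000). Levels of different genes are compared per length, and ratios or percentiles of reads beside them are named as such. Intervals are 95% Wilson intervals for a level and exact Clopper-Pearson intervals for a ratio. The reads carry no molecular identifiers and may be PCR copies of a molecule, so these intervals cover counting error only. A gene at 0 could still have had up to 3 reads, or 0.0955 CPM.

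The label pDC was checked against markers. All 11 pDC markers had reads, with a median of 251 TPM, among them *Bst2* with 4774 TPM and *Siglech* with 287 TPM. The cells were sorted on the products of *Siglech* and *Bst2* (PDCA1), so these markers were no independent check. *Runx2*, with 55.7 TPM, and *Tcf4*, with 34.0 TPM, were the lowest of the list. Of 7 conventional DC markers, 6 had reads, with a median of 32.3 TPM. *Ccr7*, the receptor that guides activated DCs to lymph nodes, had 4851 TPM and *Fscn1* had 370 TPM, while *Xcr1* had 1.00 TPM and *Cd209a* was at 0. *Clec9a* had 58.4 TPM, *Zbtb46* 32.3 TPM and *Clec10a* 2.11 TPM. *Clec9a* was thus above *Runx2* and *Tcf4* of the pDC list per merged exon base. With the longest coding transcripts it was below both, at 43.6 TPM against 56.8 and 81.0 TPM. In reads it was below both too, at 2322 against 5944 and 11239. Markers of B cells reached at most 4.15 TPM, of T cells 1.42, of erythroid cells 9.08, of macrophages 23.8 and of neutrophils 55.01. *Cd3e*, *Cd3d*, *Cd3g*, *Pax5* and *Ly6g* were at 0. Nearly all nucleated cells express class I genes, and the part of other cells in the levels below was not tested. In a bulk sample, fewer cells of a type and less RNA per cell cannot be told apart. The targeted gene *Ncf1* had 33881 reads and 766 TPM, and these values do not separate its alleles. The methods name female mice at 10 to 12 weeks of age, but *Ddx3y* on chromosome Y had 3215 reads and *Xist* had 0. The sex and origin of this library were not settled here, and the values below are those of the library labelled A/A replicate 1.

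The promoters of the 3 class I chains are shown first, because NLRC5, IFN regulatory factors (IRFs) and NF-κB act on class I genes through short elements in front of the gene. The known elements are an IRF site, an NF-κB site and, for NLRC5, a module whose parts include a CRE-like box bound by CREB and ATF proteins and an inverted CCAAT box bound by NF-Y. RefSeq windows on GRCm38.p6, from 250 bases before to 50 bases after the start of a transcript, were given for 8 of the 10 members. *Tap2* and *Nlrc5* had no entry. In the sequences below, written 5′ to 3′ in the direction of transcription, capitals mark a match on either strand to AANNGAAA (IRF core), TGACG (CRE core), CCAAT or the NF-κB consensus, and overlapping matches run together. The windows are chr2:122147437-122147736 (plus strand) for *B2m*, chr17:35262844-35263143 (plus strand) for *H2-D1*, chr17:34000284-34000583 (minus strand) for *H2-K1* and chr17:34187306-34187605 (plus strand) for *Tap1*.
B2m: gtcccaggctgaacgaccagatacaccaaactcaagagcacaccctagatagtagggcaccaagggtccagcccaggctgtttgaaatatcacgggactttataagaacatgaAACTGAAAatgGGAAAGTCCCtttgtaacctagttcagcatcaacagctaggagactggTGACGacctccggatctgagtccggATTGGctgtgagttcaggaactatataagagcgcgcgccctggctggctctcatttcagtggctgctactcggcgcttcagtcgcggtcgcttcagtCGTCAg
H2-D1: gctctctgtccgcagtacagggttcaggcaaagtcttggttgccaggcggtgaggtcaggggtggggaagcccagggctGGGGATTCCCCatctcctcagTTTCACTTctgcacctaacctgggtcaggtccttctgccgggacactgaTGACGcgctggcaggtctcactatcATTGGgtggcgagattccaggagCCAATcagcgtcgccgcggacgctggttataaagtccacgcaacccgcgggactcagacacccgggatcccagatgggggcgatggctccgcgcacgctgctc
H2-K1: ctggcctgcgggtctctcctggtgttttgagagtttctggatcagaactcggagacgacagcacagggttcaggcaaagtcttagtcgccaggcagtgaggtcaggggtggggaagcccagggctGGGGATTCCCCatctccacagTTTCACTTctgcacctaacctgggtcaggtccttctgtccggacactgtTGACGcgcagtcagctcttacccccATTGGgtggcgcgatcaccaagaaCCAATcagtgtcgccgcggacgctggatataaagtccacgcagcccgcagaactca
Tap1: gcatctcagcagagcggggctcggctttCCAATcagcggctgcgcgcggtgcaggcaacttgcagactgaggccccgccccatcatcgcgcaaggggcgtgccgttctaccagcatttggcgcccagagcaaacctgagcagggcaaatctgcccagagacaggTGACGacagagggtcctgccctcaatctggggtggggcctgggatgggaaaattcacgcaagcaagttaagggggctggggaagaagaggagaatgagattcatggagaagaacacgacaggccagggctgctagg

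*B2m*, *H2-D1* and *H2-K1* each held a match to all 4 motifs, and none of the other 5 members with a window did. The share of all RefSeq windows that hold all 4 was not computed, so how unusual this is remains unknown. Counting the start of the transcript as 0, the IRF core began at -137 in *B2m*, at -150 in *H2-D1* and at -104 in *H2-K1*. The NF-κB consensus began after it in *B2m*, at -126, and before it in *H2-D1*, at -171, and in *H2-K1*, at -125. *H2-K1* has a pair of RefSeq starts with a window each, and the one that equals the gene end in the deposited coordinates is shown. The same matches were present in the other window.

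In all 3 promoters TGACG was followed by exactly 20 bases and then by ATTGG, the inverted CCAAT. The first motif of this pair began at -78 in *B2m*, -101 in *H2-D1* and -55 in *H2-K1*. This spaced pair was looked for after the matches had been seen. It was present in 31 of 32851 RefSeq windows (0.0944%, both strands), which belong to 27 genes. Of the 22 H2 class I genes with a window it was held by *H2-D1*, *H2-K1* and *H2-M3*. From the first base of the NF-κB or IRF match, whichever came first, to the last CCAAT base before the start, *H2-D1* and *H2-K1* were identical at 108 of 123 aligned bases (87.8%). The same region of *B2m*, which begins with the IRF core, was identical to that of *H2-D1* at 58 of 89 aligned bases (65.2%).

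Single motifs are common. Over all 32851 windows, 23.9% held the IRF core, 20.8% the CRE core, 37.4% CCAAT and 8.46% the NF-κB consensus, on either strand. Of the 8 members with a window, 3 held the IRF core, 5 the CRE core, 6 CCAAT and 3 the NF-κB consensus. The windows of *Tap1* and *Psmb9* share 275 bases, and their TGACG and CCAAT matches are the same bases on opposite strands. These counts therefore include each of those matches for both genes. *Tap1* and *Psmb9* held TGACG and CCAAT, *Tapbp* held CCAAT in 2 places, and *Psmb8* and *Psmb10* held none of the 4. For some members, among them *Psmb8*, the RefSeq start lies inside the gene as deposited (34198195 against 34197721). Sequence before that deposited start of *Psmb8* was not searched. Outside the members, the window of *Psmb6* held the IRF core and the CRE core, and that of *Psmb5* held the CRE core. A match describes the letters of this window and is not a binding site by itself.

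**Figure D1:**
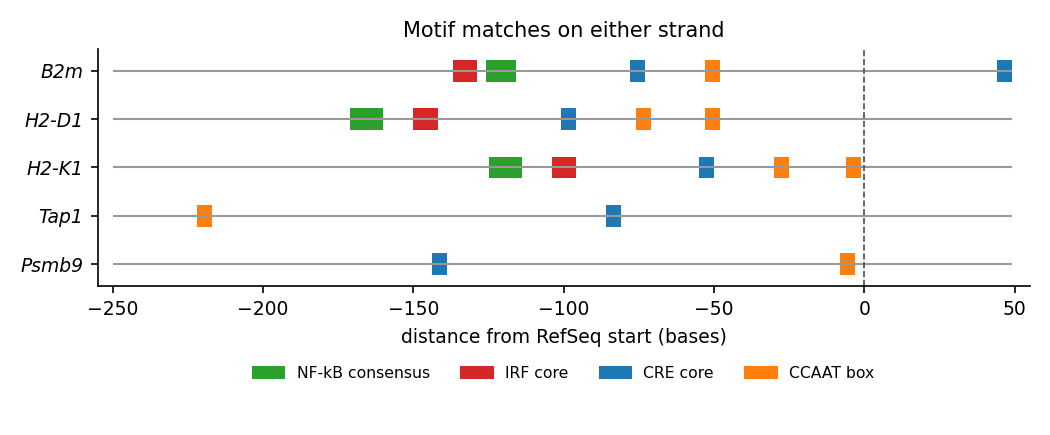
Positions of motif matches (coloured boxes, either strand) in the RefSeq windows of 5 members. The x axis is the distance in bases from the start of the transcript, marked by the dashed line. *B2m*, *H2-D1* and *H2-K1* carry all 4 motifs, with the CRE core and the first CCAAT box 25 bases apart from start to start. *Tap1* and *Psmb9* carry the CRE core and CCAAT alone, as the same bases on opposite strands.

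In A/A replicate 1 the 10 members held 1209074 reads, or 3.85% of all reads (95% CI, 3.84% to 3.86%). The 3 class I chains made up 77.6% of these reads. By reads, every member stood above percentile 97 of the genes with reads, with *Psmb10* lowest at 97.3. Per length the members summed to 60080 TPM and had a median level of 817 TPM, against a median of 4.91 TPM over all genes with reads and 9.96 TPM over protein-coding genes with reads. Their levels spanned 203-fold per length, from *B2m* to *Nlrc5*. The order was *B2m*, *H2-D1*, *H2-K1*, *Tapbp*, *Psmb8*, *Psmb10*, *Tap2*, *Tap1*, *Psmb9* and *Nlrc5*, and no neighbours in it had overlapping counting intervals. *Psmb10* and *Tap2* lay closest, 1.03-fold apart. Counting intervals at this depth are narrow, and the spread between animals is not known.

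**Figure D2:**
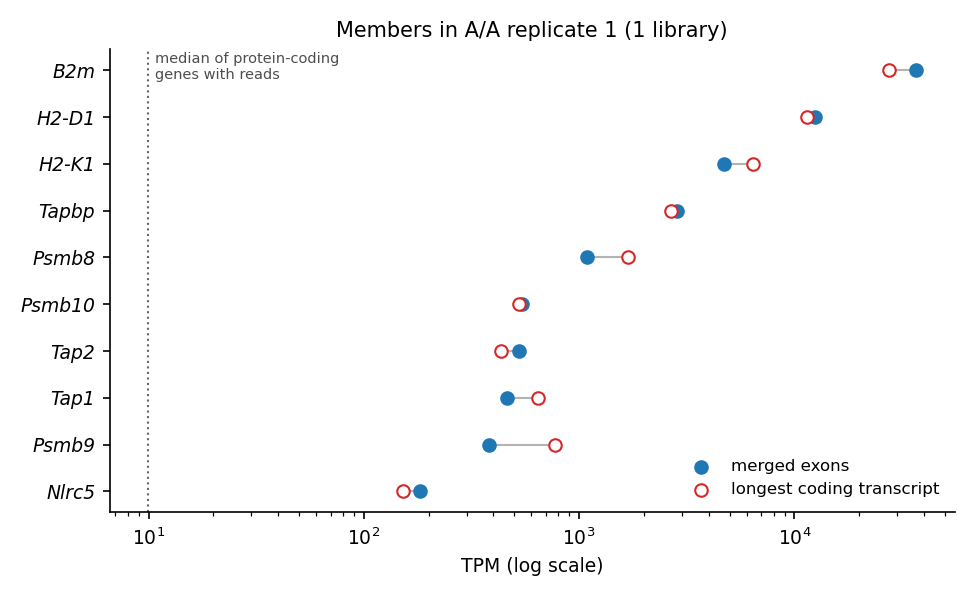
Level of each member in TPM (log scale) with the length taken as all merged exons (filled) or as the longest coding transcript (open). The dotted line is the median of protein-coding genes with reads, 9.96 TPM. All 10 members lie above it with either length, and the places of *Psmb10*, *Tap2*, *Tap1* and *Psmb9* among themselves depend on the length used.

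*B2m* encodes β2-microglobulin, the invariant light chain that every classical class I heavy chain needs to reach the surface. The gene (ENSMUSG00000060802.8) lies on chromosome 2 from 122147686 to 122153083 on the plus strand, outside the MHC. It had 382753 reads, 12186 CPM (95% CI, 12148 to 12225) and 36858 TPM (95% CI, 36742 to 36974). Per length it was second among all genes in the file. The annotation gives it a single transcript of 860 bases, and 0% of its 50-base windows occurred in another gene.

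*H2-D1* and *H2-K1* encode the classical class I heavy chains of C57BL/6 mice, the molecules that present peptide to CD8+ T cells. *H2-D1* (ENSMUSG00000073411.11, chromosome 17, 35262730 to 35267499, plus strand) had 388136 reads and 12464 TPM (95% CI, 12425 to 12503), seventh of all genes per length. *H2-K1* (ENSMUSG00000061232.15, chromosome 17, 33996017 to 34000333, minus strand) had 167610 reads and 4725 TPM (95% CI, 4702 to 4747). *H2-D1* was 2.64 times as high as *H2-K1* per merged exon base (95% CI, 2.62 to 2.65), and 1.78 times as high per base of the longest coding transcript. *H2-D1* was the higher of the pair in either case.

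Both heavy chains together were below their light chain. Per length, *B2m* had 2.14 times the summed level of *H2-D1* and *H2-K1* (95% CI, 2.14 to 2.15) and 1.59 times that of all listed class I genes together, the non-H2 genes *Cd1d1*, *Fcgrt*, *Hfe* and *Mr1* included. With the longest coding transcripts the ratios were 1.54 and 1.0835. In reads without length correction the order turned, at 0.689 and 0.508, since the *B2m* transcript is short.

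The heavy chains are close relatives, and reads could move between them. Their coding sequences were identical at 985 of 1077 aligned bases (91.5%). The longest identical stretch was 91 bases and is shown as the part where a short read could come from either gene. It lies in exon 4 of 8 in both genes, at chr17:35265911-35266001 of *H2-D1* and chr17:33997343-33997433 of *H2-K1* (GRCm38).
H2-D1 and H2-K1: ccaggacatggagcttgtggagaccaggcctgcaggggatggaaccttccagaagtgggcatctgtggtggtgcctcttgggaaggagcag

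Of the 50-base windows of their transcripts, 12.8% of those of *H2-D1* and 9.63% of those of *H2-K1* occurred in some other gene. At 150 bases, the read length of this experiment, the shares were 1.35%, all in *H2-Q1*, and 0%. The pseudogene *H2-K2*, next to *H2-K1* and named after its value was seen, had 4145 reads.

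A list of 30 H2 class I genes was taken by name, with *H2-D1*, *H2-K1*, *H2-Bl* and the *Q*, *T* and *M* genes but without *H2-K2*. Of these, 16 had reads, for 23046 TPM in all. *H2-D1* took 54.1% of this sum and *H2-K1* took 20.5%. *H2-T23*, which encodes Qa-1, the ligand of the NKG2A receptor of NK cells, followed with 10.5% (2429 TPM). *H2-Q6* took 5.13%, and *H2-Q7*, which encodes Qa-2, took 2.78%. The order of this pair turned with the longest coding transcripts, at 883 TPM for *H2-Q6* and 1340 TPM for *H2-Q7*. It turned in reads as well, at 29789 and 33024, so it was not settled. *H2-T22* took 2.33% and *H2-M3*, which presents N-formylated peptides, took 1.80%. The remaining 9 genes with reads each took at most 1.05%, the share of *H2-T24*. All 14 genes at 0 were class Ib genes or pseudogenes, 11 of them among the 14 *H2-M* genes, and *H2-T3*, *H2-Q2* and *H2-Q3* were the others.

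Assignment within the *Q* and *T* groups is uncertain. *H2-Q6* and *H2-Q7* were identical at 95.5% of aligned coding bases, with an identical run of 265 bases. Of the 150-base windows of *H2-T22*, 22.3% occurred in another gene. Outside the H2 region, *Cd1d1*, which presents lipids to NKT cells, had 84.4 TPM, *Fcgrt* 33.6, *Hfe* 4.73 and *Mr1*, which presents vitamin B metabolites to MAIT cells, 2.20 TPM.

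**Figure D3:**
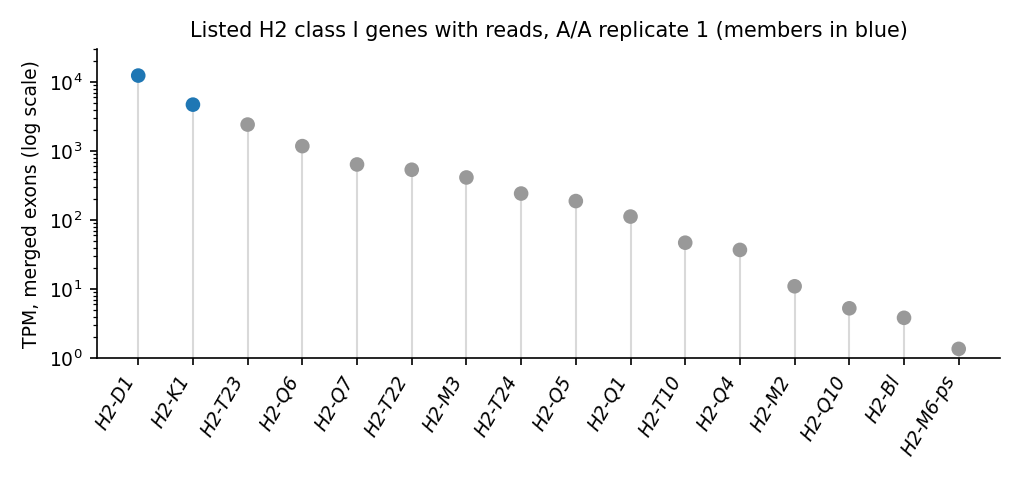
TPM per merged exon (log scale) of the 16 listed H2 class I genes with reads in A/A replicate 1 (*H2-K2* is not on the list), ordered by level. The classical genes *H2-D1* and *H2-K1* (blue) are the 2 highest, at 12464 and 4725 TPM, followed by *H2-T23* at 2429 TPM.

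*Tapbp* encodes tapasin, which bridges the empty class I molecule to TAP and favours the binding of peptides that stay bound. The gene (ENSMUSG00000024308.14, chromosome 17, 33915899 to 33929288, plus strand) had 124741 reads and 2847 TPM (95% CI, 2832 to 2863), the fourth highest member. It was 2.88 times as high per length as *Tap1* and *Tap2* together (95% CI, 2.85 to 2.91). Its relative *Tapbpl*, or TAPBPR, a peptide editor that acts outside the TAP complex, had 564 TPM, so that *Tapbp* was 5.05 times as high (95% CI, 4.97 to 5.14). Of the merged exon bases of *Tapbp*, 24.9% lie opposite exons of the antisense gene *Gm19412*, which had 881 reads. Whether reads were counted by strand is not given in the sources used here.

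*Tap1* and *Tap2* encode the subunits of the TAP transporter, an ATP-driven pump that works only as a heterodimer. *Tap1* (ENSMUSG00000037321.17, chromosome 17, 34187553 to 34197225, plus strand) had 30665 reads and 464 TPM (95% CI, 459 to 469). *Tap2* (ENSMUSG00000024339.12, chromosome 17, 34203527 to 34216321, plus strand) had 24029 reads and 526 TPM (95% CI, 520 to 533). The subunits were thus within 1.5-fold of each other, and their order was not settled. *Tap1* stood at 0.881 of *Tap2* per merged exon base (95% CI, 0.866 to 0.896), at 1.49 per base of the longest coding transcript and at 1.28 in reads. The merged exons of *Tap1* cover 5476 bases, against 2953 in its longest coding transcript, whereas those of *Tap2* cover 3781 against 3442.

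The subunits of TAP have diverged, with 61.4% identity over 2060 aligned coding bases, but share a run of 74 identical bases. It lies at chr17:34193488-34193561 in exon 8 of 11 of *Tap1* and at chr17:34214326-34214399 in exon 9 of 12 of *Tap2* (GRCm38, plus strand). It encodes the start of the nucleotide-binding domain, with the Walker A motif that holds ATP, and is shown as the part where a short read could come from either subunit.
Tap1 and Tap2: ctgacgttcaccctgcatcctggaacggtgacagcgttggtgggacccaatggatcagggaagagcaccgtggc

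Windows of 50 bases shared by *Tap1* and *Tap2* were 0.442% of those of *Tap1* and 0.655% of those of *Tap2*. At 150 bases, the read length of this experiment, *Tap1* shared windows with *Psmb9* alone (1.04%) and *Tap2* with *Gm15821* alone (0.565%). No window of that length was shared by the subunits. More of *Tap2* lies opposite other genes. Exons of *Gm15821* (1499 reads) and *Gm20496* (1387 reads) on the minus strand overlap 18.5% of its merged exon bases.

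*Psmb9*, *Tap1*, *Psmb8* and *Tap2* lie next to each other within 34.3 kb of chromosome 17, in the MHC class II region. *Psmb9* and *Tap1* point away from each other. In RefSeq their starts are 226 bases apart and their promoter windows share 275 bases, so the *Tap1* sequence above is nearly all of the *Psmb9* promoter read from the other strand. In the deposited coordinates the genes overlap by 212 bases. Per length *Tap1* was 1.22 times as high as *Psmb9* (95% CI, 1.19 to 1.24), and 0.834 times with the longest coding transcripts. The level of *Psmb8* was above those of its neighbours with either length.

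**Figure D4:**
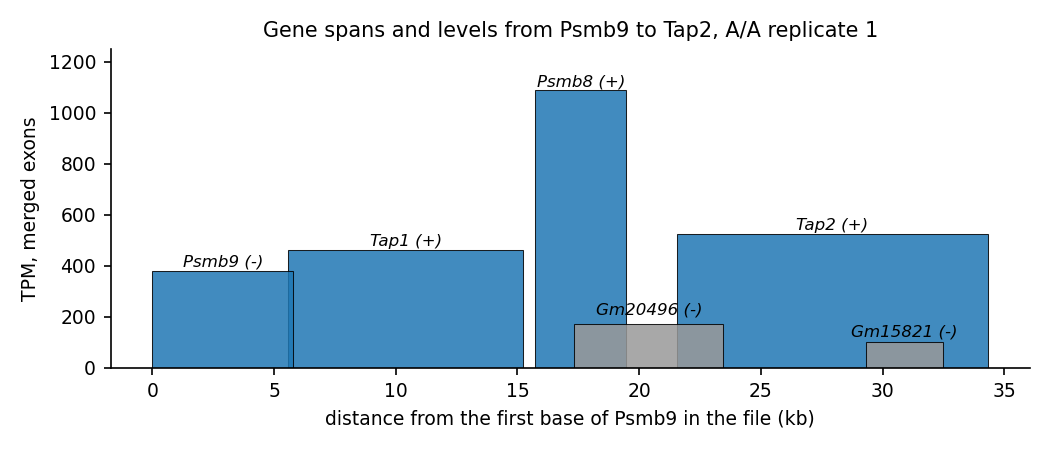
Gene spans of *Psmb9*, *Tap1*, *Psmb8* and *Tap2* (blue) and of antisense genes (grey) on chromosome 17, drawn to scale as distance from the first base of *Psmb9* in kb. Box height is the level in TPM per merged exon, and + or - is the strand. *Psmb8*, at 1089.8 TPM, is the highest, and *Gm20496* overlaps both *Psmb8* and *Tap2*.

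*Psmb8*, *Psmb9* and *Psmb10* encode the catalytic subunits β5i, β1i and β2i, which replace the constitutive subunits β5, β1 and β2 (*Psmb5*, *Psmb6* and *Psmb7*) when the immunoproteasome is assembled. The exchange favours cuts that leave the hydrophobic and basic ends that class I grooves accept. *Psmb8* (ENSMUSG00000024338.14, chromosome 17, 34197721 to 34201454, plus strand) had 44490 reads and 1089.8 TPM (95% CI, 1079.7 to 1099.9). *Psmb10* (ENSMUSG00000031897.9, chromosome 8, 105935735 to 105938444, minus strand) had 11193 reads and 544 TPM (95% CI, 534 to 554). *Psmb9* (ENSMUSG00000096727.2, chromosome 17, 34181988 to 34187764, minus strand) had 16839 reads and 381 TPM (95% CI, 375 to 387).

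*Psmb8* was the highest of the 3 however length was treated, at 2.86 times *Psmb9* and 2.004 times *Psmb10* per merged exon base. With the longest coding transcripts it was 2.19 and 3.201 times as high, and in reads 2.64 and 3.97 times. *Psmb10* was 1.43 times *Psmb9* per merged exon base, but 0.685 times with the longest coding transcripts and 0.665 times in reads. The merged exons of *Psmb9* cover 3660 bases and its longest coding transcript 1352. The order of these last 2 subunits was therefore not settled.

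Against its constitutive partner, each subunit gave a different picture. *Psmb8* was 2.92 times as high as *Psmb5* per merged exon base (95% CI, 2.82 to 3.01), 6.06 times with the longest coding transcripts and 10.97 times in reads. *Psmb10* was 8.47 times as high as *Psmb7* (95% CI, 8.12 to 8.84), and 3.73 and 4.22 times on the other scales. *Psmb9* was below *Psmb6* per length, at 0.611 (95% CI, 0.597 to 0.624) and 0.705 with the longest coding transcripts, and above it in reads alone, at 1.19. Summed, the 3 immunoproteasome subunits had 1.90 times the level of the 3 constitutive subunits per merged exon base (95% CI, 1.87 to 1.93), 1.97 times with the longest coding transcripts and 3.48 times in reads.

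*Psmb6* was the highest constitutive subunit, with 624 TPM, *Psmb5* had 374 and *Psmb7* had 64.2. The partners are distant enough for reads to be told apart, with coding identities of 67.4% for *Psmb8* and *Psmb5*, 66.2% for *Psmb9* and *Psmb6* and 63.3% for *Psmb10* and *Psmb7*. Other copies bear most on *Psmb5*, since 54.1% of its 50-base windows occurred in other genes. Most of these were in the pseudogene *Gm3375*, which had 68 reads against 4057 for *Psmb5*. At 150 bases the share for *Psmb5* was 5.91%. Of the merged exon bases of *Psmb7*, 11.8% lie opposite exons of *Nek6*, which had 4576 reads against 2652 for *Psmb7*. *Psmb7* shared 9.26% of its 50-base and 3.42% of its 150-base windows with another gene, *Nek6*. Of the merged exon bases of *Psmb8*, 14.7% lie opposite exons of *Gm20496*, which had 1387 reads against 44490 for *Psmb8*. *Psmb8* shared 11.9% of its 50-base and 4.55% of its 150-base windows with other genes, mostly *Gm20496*.

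**Figure D5:**
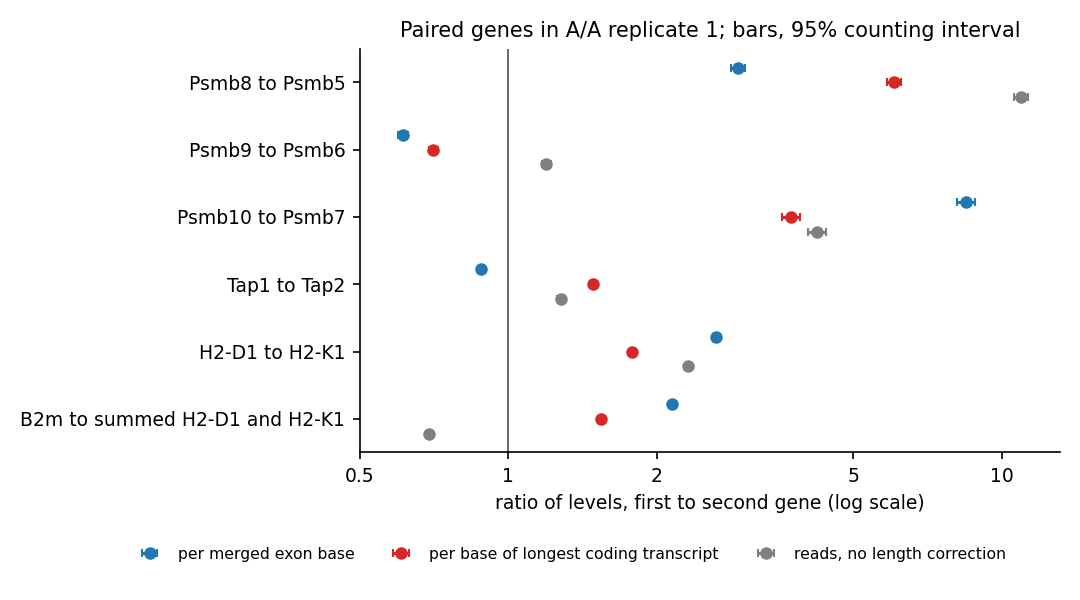
Ratios of levels between paired genes in A/A replicate 1 (log scale), per merged exon base (blue), per base of the longest coding transcript (red) and in reads (grey), with 95% counting intervals. *Psmb8* and *Psmb10* exceed their constitutive partners and *H2-D1* exceeds *H2-K1* on all 3 scales, whereas *Tap1* to *Tap2*, *Psmb9* to *Psmb6* and *B2m* to the heavy chains cross 1.

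All 9 genes of the proteasome activators and assembly factors had reads. *Psme2* and *Psme1*, which form the IFN-γ-inducible PA28 cap, led with 1453 and 570 TPM, *Psme2* being 2.55 times as high (95% CI, 2.50 to 2.60). *Pomp*, the chaperone that matures the core particle, had 99.7 TPM, and *Psme4*, which encodes the PA200 cap, was lowest at 4.51 TPM. The median of the 9 genes was 67.2 TPM.

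All 12 genes of peptide trimming and loading in the endoplasmic reticulum and cytosol had reads, with a median of 80.8 TPM, below the 817 TPM of the members. *Pdia3*, the disulfide isomerase (ERp57) that is linked to tapasin, was highest with 767 TPM. The lectin chaperones *Calr* and *Canx*, which hold class I chains while they fold, had 396 and 155 TPM. *Erap1*, the aminopeptidase that shortens peptides to fit the class I groove, had 25.5 TPM, and *Tpp2*, a cytosolic peptidase, was lowest with 10.4 TPM. Per merged exon base the 3 class I chains, *Tapbp* and *Psmb8* were above each of these 12 genes and the other 5 members were not. With the longest coding transcripts *Psmb9*, at 769.85 TPM, was above *Pdia3* as well, at 649 TPM.

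*Nlrc5* encodes a NOD-like receptor that enters the nucleus and transactivates class I, *B2m*, *Tap1* and *Psmb9* promoters. It cannot bind DNA alone and acts with the RFX complex, CREB or ATF proteins and NF-Y. The gene (ENSMUSG00000074151.13, chromosome 8, 94434356 to 94527272, plus strand) had 18618 reads, 593 CPM (95% CI, 584 to 601) and 182 TPM (95% CI, 179 to 184). It was the lowest member per length, at percentile 95.8 of the genes with reads, and its merged exons, at 8493 bases, are the longest. Its counterpart *Ciita*, the class II transactivator, had 143 TPM. *Nlrc5* was 1.27 times *Ciita* per merged exon base (95% CI, 1.246 to 1.2997) and 0.899 times with the longest coding transcripts, so their order was not settled.

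Of the 19 genes for transcription factors of class I promoters, all had reads, with a median of 32.3 TPM. The partners of NLRC5 on DNA were lower than *Nlrc5* itself. *Rfx5* had 25.9 TPM, *Rfxank* 21.4 and *Rfxap* 11.9, *Creb1* had 9.62 and *Atf1* 21.6, and the NF-Y subunits ran from 8.39 (*Nfya*, the lowest of the list) to 32.3 TPM (*Nfyc*). Factors of the IFN response varied widely. *Irf8*, which pDCs also use as a lineage factor, had 1094 TPM, the highest of the list, and *Stat2* had 492. *Irf1*, an IFN-induced activator of class I genes, had 239 TPM, *Irf9* 163 and *Irf2* 31.3 TPM. Of the NF-κB subunits, *Relb* had 445 TPM, *Rela* 248, *Rel* 65.0 and *Nfkb1* 23.8 TPM. These are transcript levels and do not measure the activity of a factor.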

How the data were processed

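RNA-Seq was done on 9 samples of R848-stimulated splenic pDCs, and the values of A/A replicate 1 were used. According to the methods, mRNA libraries were sequenced as 150 bp paired-end reads. The submitters' processing notes name HISAT2 and StringTie and the builds mm8 and mm10, without roles. The counting tool, the annotation and the use of strand are not given in the sources used here. The authors deposited a normalized signal per gene, with no stated unit. Values above 0 fell on whole multiples of 1.19 in 100% of cases (tolerance 0.01 reads), and dividing by that step gave the reads. The unit is therefore inferred. The deposited coordinates fit GRCm38.

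Genes were matched to GENCODE M21 (99.7% by identifier, 95.2% of these with identical coordinates, including 7 of the 10 members). TPM used merged exon lengths of that annotation. Alternatives were the longest coding transcript, no length correction, other denominators and other percentile bases. Coding sequences and shared windows came from M21 transcripts, and promoters from RefSeq. The genes named are the 10 members, genes of fixed pathway and marker lists that a comparison uses, and the highest and lowest of each list. Antisense and pseudogene neighbours, *Ncf1*, *Ddx3y*, *Eif2s3y*, *Kdm5d*, *Uty* and *Xist* were added. The members and lists were chosen with earlier results of these data known. Recovery of reads was tried on 3 simulated libraries of 52550 genes, and 100% of reads were recovered. These libraries were built as whole reads over a single factor, with a gene set to a single read. They therefore check the arithmetic of the recovery and cannot test the inferred unit. Software was Python 3.11.15, pandas 2.3.3, numpy 2.4.6, Biopython 1.88, matplotlib 3.10.9 and scipy 1.17.1.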

Additional observations from a re-analysis of the deposited data

How the results depend on the processing

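The length by which reads are divided moved most ratios, since merged exons exceed the longest coding transcript by a different amount in each gene. With the longest coding transcript and with no length correction, the median member level changed from 817 TPM to 1229.5 TPM and 1196 CPM, *H2-D1* to *H2-K1* from 2.64 to 1.78 and 2.32, *B2m* to the summed heavy chains from 2.14 to 1.54 and 0.689, *Tap1* to *Tap2* from 0.881 to 1.49 and 1.28, *Psmb8* to *Psmb5* from 2.92 to 6.06 and 10.97, *Psmb9* to *Psmb6* from 0.611 to 0.705 and 1.19, and *Psmb10* to *Psmb7* from 8.47 to 3.73 and 4.22. Among other ratios the direction turned for *Tap1* to *Psmb9* (0.834) and *Nlrc5* to *Ciita* (0.899) with the longest coding transcript, for *Psmb10* to *Psmb9* with both (0.685 and 0.665), and for *B2m* to all listed class I genes without length correction (0.508). The share of reads on the members rose by construction from 3.85% to 4.01% with protein-coding genes only in the denominator and to 4.18% without the 10 highest other genes. The median percentile of the members by reads was 99.3, against 99.8 among all genes, 99.2 among genes with at least 10 reads, 99.1 among protein-coding genes with reads and 99.0 on reads per kilobase. The largest change of a single member was for *Nlrc5* on reads per kilobase, whose percentile fell by 2.75 points. No paired analysis was possible because 1 library, with no same-numbered partner, was analysed. Depth limits only the genes near 0, since every member had at least 11193 reads, and the lack of replicates limits all values.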
